A study of Homo sapiens with 16 samples.

Results

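The regions described are TOP2A cleavage cluster regions found in K562 cells exposed to p-benzoquinone (pBQ), set against those found in cells given only the vehicle, dimethyl sulfoxide (DMSO). They were taken from the deposited union list of each of these treatments, kept on chromosomes 1 to 22, and sorted by whether a region touched a region of the other list by at least 1 bp. The pBQ list held 347383 regions and the DMSO list 296907, together 644290 of the 1416969 autosomal regions in the 5 lists of the study. Of the pBQ regions 27567 touched a DMSO region and 319816 did not, and of the DMSO regions 27625 touched a pBQ region and 269282 did not. K562 is an established human line from chronic myeloid leukaemia and has the BCR-ABL1 fusion gene. Treated cells received 8 µM pBQ in 0.05% DMSO for 4 h, and vehicle cells received DMSO for 1 or 4 h. Which DMSO library had which exposure is not given, so whether the times match is unknown. The lists pool 2 amplified pBQ libraries and 3 amplified DMSO libraries of the 16 libraries in the study. Because the authors pooled each treatment into 1 list, no value can be tied to a replicate. No test between the treatments is therefore possible, and intervals given here cover counting error alone. Several values are carried by 1.63% of the pBQ and 2.45% of the DMSO regions. Reads copied by PCR and carrying no molecular identifiers are not independent molecules, so the intervals cover less than the full error.

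DNA topoisomerase II alpha (TOP2A) opens both strands of a duplex, passes another duplex through the gap and closes it again, and stays covalently bound to the DNA ends while the gap is open. TOP2 poisons raise the number of these cleavage complexes, which can become double-strand breaks. Benzene is converted in liver and bone marrow to phenolic metabolites, and pBQ, a reactive quinone formed from them, is known to poison TOP2. In the assay the enzyme was captured with an antibody from sheared lysates, and the DNA bound to it was released, amplified and sequenced, so that a cleavage cluster region is a short stretch where such DNA piled up.

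Promoter stretches that regions of the lists covered can be read in the sequence. The first set shows the promoters that both lists touched at the same bases with the highest values, each written from 250 bases before to 50 bases after the start site, in the direction of the gene. Capitals mark the bases covered by a region of both lists. The ST3GAL6 promoter (a sialyltransferase gene, chr3:98732012-98732311, plus strand) was covered by a pBQ region of value 17.64 and a DMSO region of value 9.13, which share 128 promoter bases across the start site. The CCDC121 promoter (chr2:27628963-27629262, minus strand) had values of 11.84 in pBQ and 16.57 in DMSO and 109 shared bases. The ITGA2B promoter (integrin alpha IIb of megakaryocytes and platelets, chr17:44389600-44389899, minus strand) had values of 28.94 in pBQ and 11.84 in DMSO and 65 shared bases.
ST3GAL6: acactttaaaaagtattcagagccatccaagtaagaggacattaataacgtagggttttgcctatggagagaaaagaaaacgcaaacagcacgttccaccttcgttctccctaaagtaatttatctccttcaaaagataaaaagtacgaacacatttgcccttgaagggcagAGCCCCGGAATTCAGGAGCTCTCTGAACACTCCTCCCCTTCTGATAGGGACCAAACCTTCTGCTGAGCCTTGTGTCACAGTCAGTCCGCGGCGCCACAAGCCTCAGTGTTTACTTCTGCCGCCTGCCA
CCDC121: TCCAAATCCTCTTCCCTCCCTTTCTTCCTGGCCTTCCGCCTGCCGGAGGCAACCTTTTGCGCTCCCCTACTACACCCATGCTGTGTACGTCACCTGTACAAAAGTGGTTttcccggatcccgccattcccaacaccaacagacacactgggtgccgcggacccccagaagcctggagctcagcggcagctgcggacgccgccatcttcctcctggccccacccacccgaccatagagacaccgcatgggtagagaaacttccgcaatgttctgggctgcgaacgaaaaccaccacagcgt
ITGA2B: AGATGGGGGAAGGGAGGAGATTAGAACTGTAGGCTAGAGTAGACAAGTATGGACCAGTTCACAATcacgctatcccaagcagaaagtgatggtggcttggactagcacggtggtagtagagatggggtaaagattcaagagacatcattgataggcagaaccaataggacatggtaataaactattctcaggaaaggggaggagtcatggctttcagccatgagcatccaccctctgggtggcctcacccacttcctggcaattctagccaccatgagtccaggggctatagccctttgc

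The second set shows GC-rich promoters that a pBQ region covered and no DMSO region touched, with capitals marking the bases inside the pBQ region. The STK38L promoter (a serine/threonine kinase gene, chr12:27244036-27244335, plus strand, GC content 73.7%) held a pBQ region of value 12.07, which covered 191 promoter bases. The nearest DMSO region lay 5827 bp away. The LDHA promoter (lactate dehydrogenase A, chr11:18394313-18394612, plus strand, GC content 70.0%) was covered over 183 bases by a pBQ region of value 13.99, with the nearest DMSO region 5752 bp away. The CBR1 promoter (carbonyl reductase 1, an enzyme that reduces quinones, chr21:36069774-36070073, plus strand, GC content 69.3%) was covered over 117 bases by a pBQ region of value 12.08, and the nearest DMSO region was 2412 bp away. These 6 promoters were chosen after their values were seen. The GC-rich ones are not those with the highest values. The PABPN1L promoter, for example, had a pBQ region of value 31.16, with a DMSO region 108 bp away. That of AGO4 had a value of 23.43, with the nearest DMSO region 4669 bp away. Sequences are from RefSeq, assembly GRCh38.p14, whose table held promoters for 15101 of the 19126 protein-coding genes on these chromosomes.
STK38L: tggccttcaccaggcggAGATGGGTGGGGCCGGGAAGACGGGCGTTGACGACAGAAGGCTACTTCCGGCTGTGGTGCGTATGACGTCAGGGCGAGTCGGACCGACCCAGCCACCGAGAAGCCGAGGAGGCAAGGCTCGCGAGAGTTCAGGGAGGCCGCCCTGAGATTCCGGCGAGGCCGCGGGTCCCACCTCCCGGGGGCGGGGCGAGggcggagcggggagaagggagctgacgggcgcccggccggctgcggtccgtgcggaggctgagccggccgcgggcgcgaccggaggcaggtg
LDHA: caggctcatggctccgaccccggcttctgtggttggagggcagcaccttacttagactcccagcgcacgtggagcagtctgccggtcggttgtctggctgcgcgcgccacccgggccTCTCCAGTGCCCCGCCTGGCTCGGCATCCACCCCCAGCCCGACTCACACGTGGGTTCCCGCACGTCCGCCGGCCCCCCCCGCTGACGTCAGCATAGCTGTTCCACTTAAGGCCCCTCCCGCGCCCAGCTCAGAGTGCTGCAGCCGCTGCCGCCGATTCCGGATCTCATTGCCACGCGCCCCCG
CBR1: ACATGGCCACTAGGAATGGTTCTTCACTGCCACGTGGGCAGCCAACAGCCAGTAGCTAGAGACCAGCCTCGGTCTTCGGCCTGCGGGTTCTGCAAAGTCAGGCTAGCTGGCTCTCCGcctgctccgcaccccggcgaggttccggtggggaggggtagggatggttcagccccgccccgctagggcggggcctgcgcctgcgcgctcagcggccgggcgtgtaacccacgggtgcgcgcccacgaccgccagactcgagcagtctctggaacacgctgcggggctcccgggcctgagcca

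Both lists consisted of short regions scattered over the whole genome. Median width was 150 bp in pBQ and 153 bp in DMSO, and the regions covered 59.7 Mb in pBQ and 49.2 Mb in DMSO. That was 2.28% and 1.88% of the 2615.6 Mb of callable autosomal sequence, or 133 pBQ and 114 DMSO regions per Mb. Each region has a deposited value without a stated unit, with a median of 5 in pBQ and 6.09 in DMSO. All values under 10 of regions with a single value lay on whole multiples of a few steps, as scaled read numbers would. In pBQ these multiples formed a larger part of 195600 regions (step 0.2412) and a smaller part of 48774 regions (step 0.2275). In DMSO they formed a fine part of 115423 regions (step 0.2309) and a coarse part of 53678 regions (step 0.338). The lowest values equal 8 reads in both pBQ parts and in the fine DMSO part, and 11 reads in the coarse DMSO part. The labels tie no library to a part. No pBQ part had the coarse step, so treatment and library part cannot be told apart when the whole lists are set side by side. Results are therefore also given for the pBQ parts against the fine DMSO part, called the fine steps, which share a lowest number of steps.

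Few places were marked in both treatments, yet more than an even spread would give. Of the pBQ regions 7.94% (exact Clopper-Pearson 95% interval 7.85 to 8.03) touched a DMSO region, and 9.30% of the DMSO regions (9.20 to 9.41) touched a pBQ region. Had the other list been spread evenly within each 1 Mb bin, 3.97% of pBQ and 4.63% of DMSO regions would have done so, which puts the measured shares at 2.00 and 2.01 times that level. With values of at least 4 in both lists, 11316 of 215983 pBQ regions (5.24%) and 11328 of 200339 DMSO regions (5.65%) were shared, 1.80 and 1.81 times the even level. When only the fine steps were kept, the shares were 3.48% of pBQ and 7.36% of DMSO regions, and the ratio to the even level was higher, at 2.35 and 2.37.

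The pBQ parts differed in how much they shared with the same DMSO regions. Against the fine DMSO part, the smaller pBQ part shared 4.61% of its regions (4.43 to 4.80) and the larger pBQ part 3.20% (3.12 to 3.28), or 3.15 and 2.15 times the even level. Against the coarse DMSO part, 0.990% of the fine-step pBQ regions were shared, 1.59 times the even level. Parts of the same list met each other at a like ratio where their components were joined into 1 region. In pBQ 3114 regions joined the smaller and the larger part, holding 5.80% of the 53647 components of the smaller part, 2.37 times the even level. In DMSO 1442 regions joined the coarse and the fine part, holding 2.61% of the 55212 coarse components, 1.97 times the even level. The ratio between treatments thus lay on both sides of the ratio within a treatment, depending on the parts that were paired.

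Where regions met, their values were nearly unrelated. The 27778 touching pairs overlapped by a median of 104 bp (quartiles 54 and 136 bp), and their midpoints lay a median of 69 bp apart. The rule that regions touch itself limits how far apart the midpoints of such short regions can lie. Of these pairs 97.4% joined 1 pBQ region with 1 DMSO region. Across these 27057 one-to-one pairs the values of the lists had a Spearman rank correlation of 0.0010, and on the fine steps it was 0.035 over 8325 pairs. The pairs are genomic sites within the same pooled lists, not replicates. Most other regions were not near misses, since 24.6% of pBQ-only regions had a DMSO region within 1 kb and 28.0% of DMSO-only regions a pBQ region within 1 kb. The median distance to the nearest region of the other list was 2568 bp for pBQ-only and 2254 bp for DMSO-only regions.

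Width moved the shared percentage more than value did. Of pBQ regions up to 100 bp wide 5.31% were shared, against 19.3% of those over 500 bp. In DMSO the corresponding shares were 7.32% and 20.8%. The ratio to the even level stayed between 1.90 and 2.23 over the pBQ width classes and between 1.97 and 2.19 over those of DMSO, so the even level grew with width as the measured share did. By value, the pBQ share lay between 7.46% and 7.88% up to a value of 10, reached 10.9% at values of 20 to 40 and was 9.35% (6.64 to 12.7) over 40. The DMSO share was highest at values of 2.5 to 4, at 11.1%, and lowest at 6 to 10, at 7.94%. Regions joined from 2 components were shared more often, at 16.6% in pBQ and 17.7% in DMSO, or 3.11 and 2.79 times the even level.

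**Figure D1:**
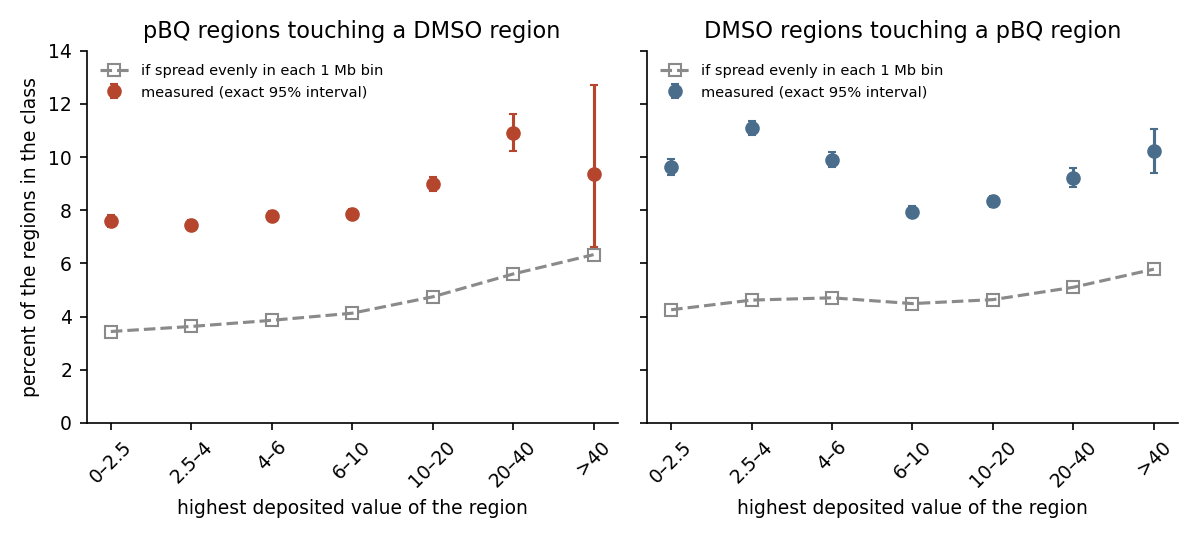
Percent of the pBQ regions (left) and of the DMSO regions (right) that touch a region of the other list, by the highest deposited value of the region; bars are exact 95% intervals and open squares the level if the other list were spread evenly in each 1 Mb bin. Every class lies above its even level, and the pBQ share reaches 10.9% at values of 20 to 40.

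The upper ends of the lists can be described by value and by width. Values over 40 were found in 385 pBQ regions and 5259 DMSO regions. Since values have no stated unit or scaling, the same limit need not mean the same in both lists. The coarse DMSO part also had the largest step, 0.338. Widths over 500 bp were found in 3599 pBQ regions (1.04%) and 1425 DMSO regions (0.480%). Among shared regions, the pair with the highest lower value lay in ESS2, a gene for a spliceosome-associated protein, at chr22:19144067-19144478 in pBQ (value 49.75) and chr22:19144236-19144552 in DMSO (value 38.92), in hg38 coordinates. Further strong pairs lay in ELOA, which encodes the elongin A subunit of a transcription elongation factor (values 35.51 in pBQ and 40.27 in DMSO), and in HORMAD2, a meiotic chromosome axis gene (34.32 and 40.61). GAP43, a neuronal growth cone gene, had 32.37 in pBQ and 41.63 in DMSO, PROM1, the gene of the stem cell surface protein CD133, had 34.05 and 32.14, and RARB, a retinoic acid receptor gene, had 36.97 and 32.14. Another 3 of the strongest pairs lay outside protein-coding genes. Among strong pBQ-only regions, 1 lay in CYP4B1, a cytochrome P450 gene, at chr1:46817397-46817562 with a value of 135.13, and another in GALNT18, a mucin-type glycosylation gene, with 98.62. The 5 strongest DMSO-only regions, with values of 171.26 to 195.29, all lay outside protein-coding genes.

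Genes and their ends held a larger share of the pBQ list than of the DMSO list. Of pBQ regions 49.3% (49.2 to 49.5) had their midpoint in the body of a protein-coding gene, against 47.4% (47.2 to 47.6) of DMSO regions. Within 1 kb of a gene end lay 3.15% of pBQ regions (10959) and 2.61% of DMSO regions (7761), a log2 ratio of 0.27. Regions present only in DMSO had the lowest share at gene ends, 2.53%, beside 3.14% of pBQ-only regions, 3.37% of pBQ regions that were shared and 3.39% of DMSO regions that were shared. The size of the difference depended on the library parts. With values of at least 4 the log2 ratio was 0.39, on the fine steps 0.09 (3.09% of pBQ and 2.91% of DMSO regions), and with the smaller pBQ part alone it was −0.08.

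Around the start sites of 15101 protein-coding genes, which lie on 21 chromosomes since those of chromosome 8 were not used here, pBQ regions were denser than their list mean and DMSO regions were not. Within 1 kb of a start site the density of pBQ midpoints was 1.24 times the mean of the pBQ list (4969 regions), and that of DMSO midpoints 0.979 times the mean of the DMSO list (3345 regions). At 5 to 10 kb from a start site the densities were 1.07 in pBQ and 0.959 in DMSO, so part of the difference was broad. The highest 500-bp bin of pBQ, at 1.37 times the mean, began 500 bp inside the gene. For the fine steps both lists were denser than their mean, at 1.21 for pBQ and 1.13 for DMSO, whereas the coarse DMSO part was at 0.837. At 5 to 10 kb these densities were 1.05, 1.07 and 0.891. At the far ends of the same genes the density was 1.22 in pBQ and 1.04 in DMSO, and 1.21 and 1.09 on the fine steps. At 5 to 10 kb from the far ends it was 1.14 and 1.01, and 1.12 and 1.13 on the fine steps. The share of regions near a start site differed by width. Of pBQ regions up to 100 bp 1.20% (1.05 to 1.38) lay within 1 kb of one, and of those of 300 to 500 bp 1.71% (386 regions, 1.54 to 1.88), while in DMSO the shares were 1.12% and 1.08%. Over 500 bp they were 1.51% (52 regions, 1.13 to 1.97) in pBQ and 1.41% (19 regions, 0.853 to 2.20) in DMSO. On the fine steps the 300 to 500 bp class stood at 1.83% in pBQ (152 regions, 1.55 to 2.14) and 1.19% in DMSO (46 regions, 0.873 to 1.59), and the 200 to 300 bp class at 1.40% in pBQ (1.23 to 1.59) and 1.47% in DMSO (1.22 to 1.75).

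**Figure D2:**
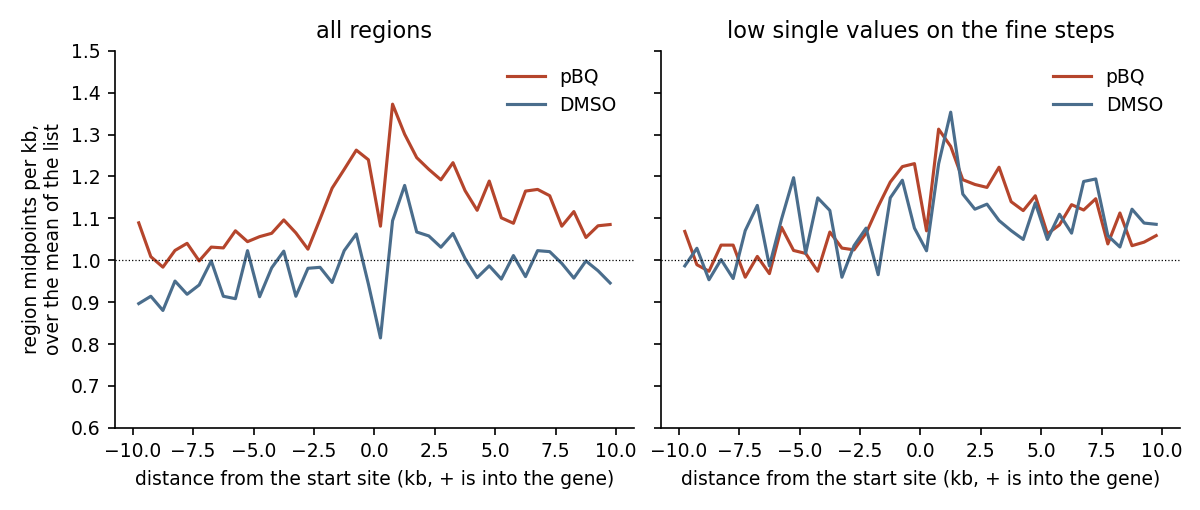
Density of region midpoints in 500-bp bins from 10 kb before to 10 kb after the start sites of protein-coding genes, over the mean of each list, for all regions (left) and for the fine steps (right). Near the start pBQ stands above its mean in both panels, with 1.24 and 1.21 within 1 kb, and DMSO at 0.979 and 1.13. At 5 to 10 kb pBQ stands at 1.07 and 1.05, and DMSO at 0.959 and 1.07.

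The contrast at promoters grew with their GC content. Of the 15101 promoters of 300 bp, 1047 were touched by a pBQ region (6.93%) and 654 by a DMSO region (4.33%). Both lists touched 94 promoters (0.622%), pBQ alone 953 (6.31%) and DMSO alone 560 (3.71%). How many promoters both would touch if the lists were independent was not computed. The log2 ratios are those of the regions at these promoters, pBQ over DMSO per list size. Over all promoters, with 1050 pBQ and 657 DMSO regions, the log2 ratio was 0.45 (0.30 to 0.59). Split into 5 classes of similar size from low to high GC, the promoters touched numbered 257, 342, 247, 154 and 47 in pBQ and 213, 234, 124, 71 and 12 in DMSO. The log2 ratios were 0.04, 0.31, 0.76, 0.89 and 1.74 in the same order. Promoters of over 72% GC were thus rarely touched in either treatment, with the fewest in DMSO.

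Kept to the fine steps, the ratio also grew with GC, from a lower start. It was −0.37 (−0.75 to 0.01) and −0.03 (−0.36 to 0.32) in the lower classes, 0.49 (0.05 to 0.95) in the middle, and 0.98 (0.37 to 1.65) and 1.67 (0.15 to 3.65) in the upper ones. Over all promoters it was 0.16 (−0.04 to 0.37). Against the coarse DMSO part the order was not kept, with 0.89 in the middle class and 0.31 in the next. The smaller pBQ part, with 99 promoters touched against 291 by the fine DMSO part, gave −0.31 over all promoters and went from −0.85 in the lowest to 1.24 in the highest GC class. The larger pBQ part went from −0.27 to 1.76. The last class rests on few promoters, 27 in pBQ and 4 in DMSO on the fine steps. Over 1 kb on each side of the start, the log2 ratios of all regions in the same order were 0.03, 0.29, 0.50, 0.46 and 0.42, so the increase stopped at the middle class. These wider windows gave on the fine steps −0.07, −0.02, 0.20, 0.15 and 0.17, and 0.08 over all promoters (−0.004 to 0.17).

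**Figure D3:**
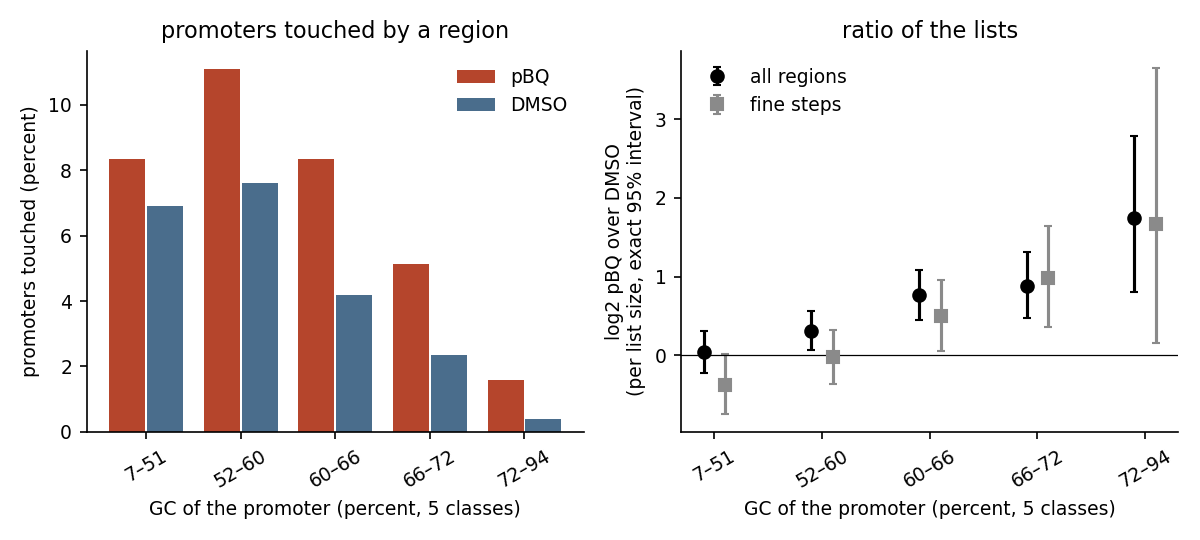
Left, percent of promoters touched by a pBQ or a DMSO region, by 5 classes of promoter GC content. Right, log2 ratio of pBQ over DMSO regions at these promoters per list size with exact 95% intervals, for all regions and for the fine steps. The ratio is 0.04 in the lowest and 1.74 in the highest class for all regions, and −0.37 and 1.67 on the fine steps.

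Touched promoters were less GC-rich than the rest in either treatment. Median GC content was 58.3% in promoters touched by pBQ alone, 56.3% in those touched by DMSO alone, 54.7% in those touched by both and 63.7% in those touched by neither. The GC box core GGGCGG, a sequence bound by Sp1 family factors and searched on both strands, was in 44.3% of promoters touched by pBQ alone and in 42.0% of those touched by DMSO alone. It was in 60.8% of those touched by neither and in 58.9% of all promoters. Of the GC-rich promoters printed above, STK38L held 3 copies, CBR1 held 2 and LDHA held none. CCAAT, also searched on both strands, was in 39.1% of promoters touched by pBQ alone, 41.4% of those touched by DMSO alone and 36.0% of all promoters. A match of letters is a description and does not show binding.

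Along the chromosomes the pBQ list leaned toward gene-dense sequence. In 1 Mb bins without a protein-coding gene there were 92.0 pBQ and 97.0 DMSO regions per Mb, a log2 ratio per list size of −0.30 (−0.33 to −0.28). In bins with 21 to 74 genes there were 158 pBQ and 111 DMSO regions per Mb, a log2 ratio of 0.28 (0.26 to 0.31), and the classes between them lay in order. With values of at least 4 the ratios of these outer classes were −0.51 and 0.46. On the fine steps they were 0.09 and 0.01, with 67.8 pBQ and 30.1 DMSO regions per Mb in the bins without a gene and 107 and 50.0 per Mb in the densest bins. The gradient in the ratio was thus not present on the fine steps. Chromosome 19 had the highest ratio, 0.26, and chromosome 13 the lowest, −0.38, and on the fine steps all chromosomes lay between −0.08 and 0.07. With all regions, single bins seldom passed a 2-fold difference, and which direction had more bins depended on the regions kept. None of 2653 bins with at least 20 regions held 2-fold more regions in pBQ (0%), and 19 held 2-fold fewer (0.716%). With values of at least 4 these counts were 23 and 108, on the fine steps 10 and 2, and against the coarse DMSO part 113 and 154. These choices keep fewer regions per bin, and the number of bins tested under them is not given. Their counts therefore cannot be read as shares or set against those of all regions.

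**Figure D4:**
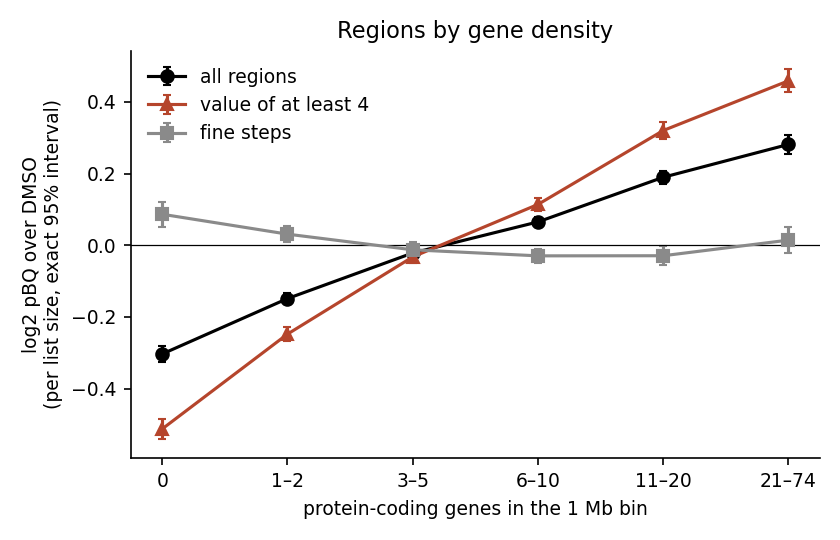
Log2 ratio of pBQ over DMSO regions per list size by the number of protein-coding genes in the 1 Mb bin, with exact 95% intervals, for all regions, for values of at least 4 and for the fine steps. The ratio goes from −0.30 to 0.28 for all regions and from 0.09 to 0.01 on the fine steps.

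Single genes were compared by the number of regions in the gene and 2 kb on each side, scaled to list size, with 0.5 added to each count. Of the 19126 protein-coding genes, 8171 had at least 10 regions in the lists together and were tested against a 2-fold limit. At least 2-fold more regions in pBQ were found in 619 genes (7.58%) and at least 2-fold fewer in 380 (4.65%). With the fine steps the numbers were 366 (7.01%) and 348 (6.66%) of 5224 genes. Only 109 of the genes with more and 57 of those with fewer passed in both, so most calls belong to 1 choice of regions. Gene length went with the ratio. Genes of up to 10 kb held 1.26 times as many pBQ as DMSO regions per list size (1.20 to 1.33), and genes over 1 Mb 0.893 times (0.870 to 0.918), against 1.08 and 1.02 on the fine steps.

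UNC13A, which primes synaptic vesicles for release, stood highest among genes with at least 20 regions, with 32 pBQ and 4 DMSO regions and a log2 ratio of 2.63. On the fine steps it had 17 and 3 and a log2 ratio of 1.24. TTLL6, a tubulin polyglutamylase gene, had 19 pBQ and 3 DMSO regions. TSPAN12, a tetraspanin of Norrin signalling, had 17 and 3, and on the fine steps 14 and 1, a log2 ratio of 2.19. Counts of 17 in pBQ and 3 in DMSO were also found in TANGO2, in CREB3L1, a membrane-bound transcription factor gene, and in C10orf105. CHURC1-FNTB, a readthrough gene that spans its namesakes, had 27 and 5, and MLXIPL, the glucose-responsive transcription factor ChREBP, had 21 and 4. LPGAT1, a lysophospholipid acyltransferase gene, had 25 and 5, and PAXIP1, a BRCT-domain protein of the DNA damage response, had 20 and 4. These 10 genes were chosen for their high ratio, and in each the pBQ count per list size was at least 4 times the DMSO count. No more than 2 of the pBQ regions per gene touched a DMSO region. With only 3 to 5 DMSO regions per gene, few could. MLXIPL (0.39), TTLL6 (0.87) and CREB3L1 (0.99) lay on the fine steps inside the 2-fold limit and TANGO2, with 6 and 3, had too few regions for a ratio.

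At the other end, SLCO1B3, a hepatic organic anion transporter gene, held 3 pBQ and 17 DMSO regions, a log2 ratio of −2.55. APAF1, which forms the apoptosome, had 4 and 16, a log2 ratio of −2.10, and on the fine steps 2 and 8, a log2 ratio of −2.85. LRRFIP1 had 7 and 23, BRD10 had 6 and 21, and LRFN5, a synaptic adhesion gene, had 11 and 34. HTR1F, a serotonin receptor gene, had 5 and 16. TAF2, a subunit of the general transcription factor TFIID, had 5 and 15, and PLAG1, a zinc finger transcription factor gene, had 7 and 20. AP4E1, a subunit of an adaptor complex, and GSTCD each had 6 and 17. On the fine steps, LRFN5 had 10 and 9, a log2 ratio of −0.94, and so lay inside the 2-fold limit. SLCO1B3, with 2 and 3, and TAF2, with 5 and 4, had too few regions there for a ratio. The same held for AP4E1, with 4 and 5, and GSTCD, with 3 and 5.

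**Figure D5:**
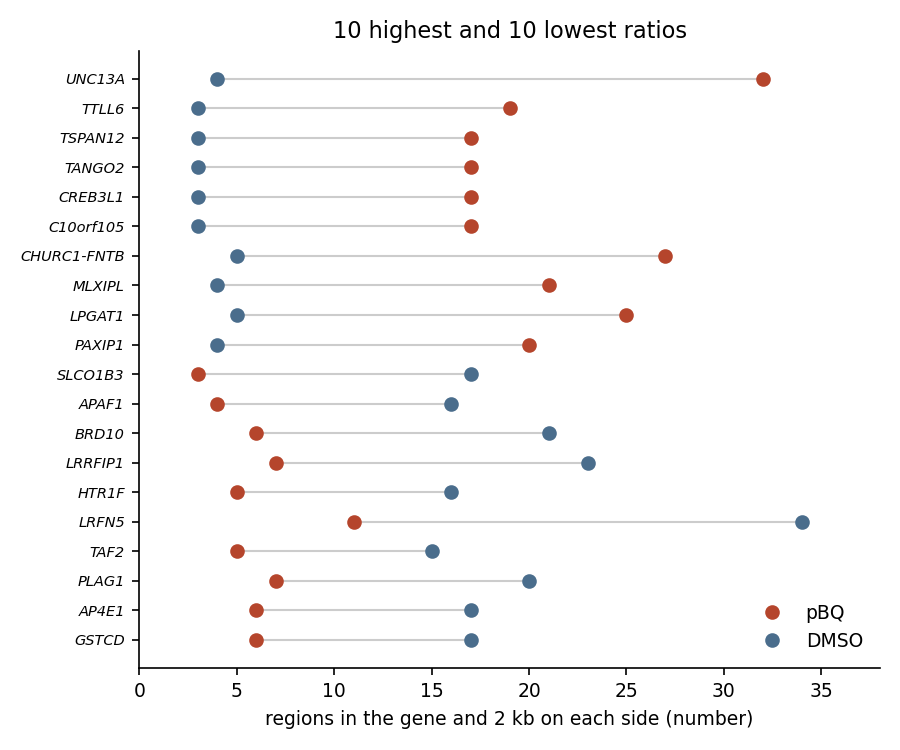
Number of pBQ and DMSO regions in the gene and 2 kb on each side for the 10 genes with the highest and the 10 with the lowest ratio among those with at least 20 regions, highest ratio at the top. UNC13A has 32 pBQ and 4 DMSO regions, and SLCO1B3 at the start of the lower group has 3 and 17.

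Shared regions were most numerous in very long genes. CDH13, the gene of T-cadherin, held 33 pBQ regions that touched a DMSO region, of 248 in all, and the neuronal ion channel gene ASIC2 held 29 of 265. The splicing regulator gene RBFOX1 held 29 of 450, LRMDA 27 of 231 and AGBL4, a tubulin-modifying carboxypeptidase gene, 26 of 215. By share among genes with at least 20 pBQ regions, the GABA transporter gene SLC6A11 led with 10 of 31 pBQ regions (32.3%), followed by the catenin gene ARVCF and by RCSD1 with 7 of 23 each (30.4%). LGR6, a receptor of R-spondins, had 10 of 36 and the kinase gene CAMK4 had 8 of 29. Over all protein-coding genes 8.08% of pBQ regions were shared.

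Genes that take part in leukaemia translocations are of interest for benzene and for TOP2 poisons. Of the 46 listed genes 38 had enough regions, and 3 of them held at least 2-fold more regions in pBQ and 2 at least 2-fold fewer. Their median log2 ratio was 0.19, against 0.08 over all tested genes, and on the fine steps it was 0.03, against −0.004. MLLT1, a subunit of the super elongation complex, had 19 pBQ and 6 DMSO regions (log2 ratio 1.36, and 1.45 on the fine steps). The nucleoporin gene NUP214 had 10 and 3 (1.36). BCR, the partner of ABL1 in the fusion of these cells, had 13 and 5 (1.07, and 0.20 on the fine steps), while ABL1, a tyrosine kinase gene, had 7 and 7. The kinase gene JAK2 had 9 pBQ and 18 DMSO regions (−1.19), of which 7 and 1 were on the fine steps, and FIP1L1, a polyadenylation factor gene, had 5 and 9 (−1.02). The haematopoietic transcription factor genes lay between these limits. RUNX1 had 55 pBQ and 35 DMSO regions (0.42, and −0.06 on the fine steps), and ETV6 had 53 and 36 (0.33, and −0.21). MECOM had 87 and 96 (−0.37, and −0.59), and RARA, the retinoic acid receptor fused in promyelocytic leukaemia, had 14 and 8 (0.54, and −0.60). The sign of RUNX1, ETV6 and RARA thus turned on the fine steps. Both PRDM16, with 113 and 54 (0.83, and 0.15 on the fine steps), and CBFA2T3, with 31 and 15 (0.80, and 0.71), stood inside the 2-fold limit. Of 32 genes tested on the fine steps, MLLT1 passed with more regions, and PML and CBFB with fewer (−1.08 each). With 3 and 2 of 38 genes past the limit, the list's share is near that of all tested genes.

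Genes that handle benzene and its quinones mostly held too few regions to be compared. Of 17 genes of benzene metabolism 5 were tested, all 5 with a ratio above 0, as were 4526 of all 8171 tested genes, and a median log2 ratio of 0.71. EPHX1, the microsomal epoxide hydrolase that acts on benzene oxide, had 18 pBQ and 5 DMSO regions (1.52, and 0.61 on the fine steps) and was the 1 gene past 2-fold, beside 7.58% of all tested genes. None of the 3 tested on the fine steps passed. PTGS1, a cyclooxygenase gene, had 12 and 5 (0.96). MPO, the myeloperoxidase that oxidises hydroquinone to quinone, had only 5 and 3. Of 40 genes of the NRF2 response to quinones 13 were tested, with a median of 0.08 (0.64 over the 6 tested on the fine steps), and EPHX1 was again the 1 with at least 2-fold more. The 1 with at least 2-fold fewer was AKR1C3, an aldo-keto reductase gene, with 3 and 8 (−1.51). TXNRD1, thioredoxin reductase 1, had 22 and 13 (0.51, and 1.45 on the fine steps), and CAT, catalase, had 9 and 4 (0.85).

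Genes of DNA cutting and repair had 1 call per list, beside 7.58% of all tested genes with at least 2-fold more and 4.65% with at least 2-fold fewer regions, and none of the lists had a call on the fine steps. Of 16 topoisomerase and adduct removal genes 9 were tested and TOP1MT, the mitochondrial topoisomerase gene, passed with 15 pBQ and 4 DMSO regions (1.56, and 0.75 on the fine steps), beside a median of −0.10 (0.50 on the fine steps). RBBP8, the gene of the end resection factor CtIP, had 16 and 17 (−0.31). Of 24 double-strand break repair genes 16 were tested and TP53BP1, a chromatin factor that limits end resection, passed with 22 and 9 (1.02, and 0.08 on the fine steps), beside a median of 0.26 (0.05 on the fine steps). PARP1 had 13 and 8 (0.44). The 25 common fragile site genes, all of them long, were all tested, and their median was −0.24 and 0.02 on the fine steps. WWOX had 209 pBQ and 178 DMSO regions, 24 of the pBQ regions shared. Only NBEA, a neuronal trafficking gene, had at least 2-fold fewer regions in pBQ, with 34 and 69 (−1.24). On the fine steps NBEA had 25 and 7, so its direction turned there to more regions in pBQ per list size.

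Lists for cell identity were short. None of 11 tested erythroid genes and none of 9 tested lymphoid genes passed in either direction, with medians of 0.11 and −0.23, beside 7.58% and 4.65% of all tested genes past the limits. Among the fine steps 1 of 7 erythroid genes passed, the transcriptional repressor gene GFI1B with 12 and 1 (1.98), and the medians were −0.16 and −0.28. SLC25A37, the mitochondrial iron importer of erythroid cells, had 17 pBQ and 11 DMSO regions, and CD3D, a gene of the T cell receptor complex, had 7 and 3. Region numbers do not measure expression, so the label of the cells cannot be checked with them. Of 25 immediate early genes 4 were tested and NR4A3, an orphan nuclear receptor gene, had at least 2-fold fewer regions in pBQ, with 4 and 12 (−1.70). Of 47 ribosomal protein genes 1 and of 30 olfactory receptor genes none had enough regions. Summed over these short genes, ribosomal protein genes held 91 pBQ and 50 DMSO regions, 1.56 times per list size (1.09 to 2.24), and olfactory receptor genes 36 and 37, 0.832 times (0.511 to 1.35). On the fine steps the ratios were 1.53 (0.926 to 2.63) and 0.797 (0.414 to 1.58). All genes of up to 10 kb stood at 1.26 (1.20 to 1.33), and at 1.08 on the fine steps.

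The overlap of pBQ with DMSO can be set beside that of the other poisons. Against the DMSO list the shares stood at 2.00 times the even level for pBQ, 2.22 for 25 µM etoposide, 1.79 for 50 µM genistein and 1.85 for 2 µM mitoxantrone, which were given for 1 h. These lists share the DMSO list and differ in exposure, so the values are given side by side. The pBQ list met the etoposide list at 1.92 times the even level and the lists of genistein and mitoxantrone at 1.56 and 1.55 times. Regions that pBQ shared with DMSO were also found more often under another poison. Of them 21.7% (21.2 to 22.1) touched a region of at least 1 other poison, against 14.4% (14.3 to 14.5) of pBQ-only regions. For DMSO the shares were 21.1% of shared and 16.9% of DMSO-only regions. For etoposide, the pBQ regions shared with DMSO stood at 2.91 times the even level and pBQ-only regions at 1.82 times. Shared pBQ regions were wider, with a median of 160 bp against 149 bp for pBQ-only regions, and the even level takes this width into account. Regions touched under all 3 other poisons were few, 32 of the shared (0.116%) and 116 of the pBQ-only regions (0.0363%).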

How the data were processed

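TOP2A-bound DNA from K562 cells was sequenced from 2 amplified p-benzoquinone and 3 amplified vehicle libraries, which the authors pooled into 1 deposited union list per treatment. Per the submitters' processing notes, Bowtie2 2.1.0, SAMtools 0.1.19 and hg38 were used. For the region caller, its thresholds and the normalization nothing is given in the sources used here. The deposited signal of a region, as the authors' lists hold it, has no stated unit, and where a region carried several values the highest was used. The depth of the libraries is unknown, since only called regions were deposited.

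Regions on chromosomes 1 to 22 were kept. Overlap needed 1 bp. Callable sequence was the 100 kb bins with a region in any of the 5 lists. The even level was the percent of regions that would touch the other list if that list lay evenly over the callable bases of each 1 Mb bin. It is arithmetic, not a test. Genes and promoters came from RefSeq GRCh38.p14. A gene was compared with at least 10 regions in both lists together, a 1 Mb bin with at least 20. Calls were 2-fold differences in region number per list size with 0.5 added. The median gene then stood at a log2 ratio of 0.08. Values under 10 of single-value regions were assigned to a part when they fitted whole multiples of 1 step only.

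The named genes are the 10 highest and 10 lowest ratios among genes with at least 20 regions, the 5 with most shared regions, the 5 with the highest share among genes with at least 20 pBQ regions, and members of 11 gene lists (315 entries, 1 matched through an older symbol). NBEA, NR4A3, GFI1B and the printed promoters were named after their values were seen. The members, lists and limits were chosen with earlier results of these data known. Some items under these rules are not reported here. Steps were checked on simulated data. Intervals are exact 95% intervals for counting error. Python 3.11.15, scipy 1.17.1, numpy 2.4.6, matplotlib 3.10.9 and pandas 2.3.3 were used.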

Additional observations from a re-analysis of the deposited data

Results flagged for a closer look

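Regions outside chromosomes 1 to 22, X and Y were not used in any comparison. They made up 0.0659% of the pBQ list (237 regions) and 0.0648% of the DMSO list (201 regions), which was looked at again because the share in pBQ is the higher one. The difference was not tested. Chromosome X, also outside the comparisons, held 3.29% of the pBQ list (11816 regions) and 4.21% of the DMSO list (13067 regions).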

How the results depend on the processing

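No paired analysis was possible because the authors pooled the libraries of each treatment into 1 list, and leaving out a replicate was not run for the same reason. GC content of the regions was not run, with no genome used here. The pairings of parts and the promoter and gene-density alternatives were chosen after seeing the data. Depth is unknown, and regions under the lowest values kept are missing from either list.

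The percent of pBQ regions touching DMSO was 7.94, and that of DMSO regions touching pBQ 9.30. With values of at least 4 the pair was 5.24 and 5.65, with 50 bp of overlap 6.15 and 7.21, with 50% of both regions 3.47 and 4.06, and with single-value regions 7.43 and 8.78. On the fine steps it was 3.48 and 7.36, with the larger pBQ part 3.20 and 5.43, with the smaller 4.61 and 1.95, and against the coarse DMSO part 0.990 and 4.50. Fewer regions on the other side lower such a share by construction.

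The log2 ratio at gene ends, 0.27, was 0.20 at 5 kb, 0.39 with values of at least 4, 0.088 on the fine steps, 0.13 with the larger pBQ part, −0.076 with the smaller and 0.38 against the coarse DMSO part, and 0.30 by covered bases.

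The count of genes with at least 2-fold more regions in pBQ, 619, was 370 with 2 regions added, 169 at a minimum of 20 regions, 366 on the fine steps, 400 with the larger and 211 with the smaller pBQ part. The count with at least 2-fold fewer, 380, was 110 at a minimum of 20 regions and 171 with the smaller pBQ part. The other alternatives stayed within 1.5 times. Settings that drop regions or raise the minimum leave fewer genes to test, so these counts cannot be read as shares. On the fine steps 366 genes were 7.01% of 5224, beside 7.58% of 8171 with all regions. The number of genes tested under the other settings is not given.

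Of 1 Mb bins, 0 had 2-fold more and 19 had 2-fold fewer pBQ regions. These counts were 23 and 108 with values of at least 4, 10 and 2 on the fine steps, 5 and 35 by covered bases, 11 and 3 with the larger pBQ part, 20 and 34 with the smaller, and 113 and 154 against the coarse DMSO part. Settings that drop regions leave fewer per bin, and the number of bins tested under them is not given.

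The promoter ratio changed sign with the smaller pBQ part over all promoters (−0.31) and in the lower 3 GC classes (−0.85, −0.48 and −0.0067). In the lowest GC class it was also negative on the fine steps (−0.37), with the larger pBQ part (−0.27) and against the coarse DMSO part (−0.17), and in the next class on the fine steps (−0.025). The ratio in bins without genes was 0.087 on the fine steps. The cause of these changes was not tested. The median value of shared pBQ regions, 5.07, stayed within its spread under every alternative run.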
